A study of Homo sapiens with 8 samples.

Results

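The mitochondrial ribosome translates the few messenger RNAs that mitochondria make themselves, and its proteins are encoded in the nucleus, made in the cytosol and imported. Genes named MRPL were named for the large subunit, which joins amino acids, and genes named MRPS for the small subunit, which holds the messenger. The proteins of a subunit are needed in fixed proportions around the ribosomal RNAs, and those RNAs come from the mitochondrial genome. The members were all protein-coding genes with a symbol made of MRPL or MRPS, a number and at most 1 further letter. They numbered 78 of 78932 gene identifiers counted, with 49 MRPL and 29 MRPS genes.

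Poly(A) RNA was sequenced from transcript 3′ ends in HCT116, a human colorectal cancer line, carrying a dTAG on NUDT21, the small subunit of cleavage factor Im, which binds RNA near poly(A) sites. The comparison was of 4 libraries from cells given DMSO and JTE-607 with 4 from cells given dTAGV1 and JTE-607. dTAGV1 directs the tagged protein to degradation, DMSO is a solvent, and JTE-607, given to every library here, inhibits the nuclease that cuts RNA at poly(A) sites. Dose, time and whether the line is 1 clone are not given in the sources used here, and no library without JTE-607 was analysed here.

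Libraries held 8649238 to 9977205 reads, of which 3447842 to 4291256 fell on the sense strand of a gene and were counted. NUDT21 RNA fell in the dTAGV1 group by 1.95 on the log2 scale, with a standard error (SE) of 0.18 and an adjusted p of 1.36e-09. Such p-values are from the quasi-likelihood test of edgeR and adjusted over all tested genes by Benjamini-Hochberg (BH). The NUDT21 protein, on which dTAGV1 acts, was not measured here. The 5 epithelial markers EPCAM, CDH1, KRT8, KRT18 and KRT19 lay between 49.8 and 882 CPM in every library, where CPM denotes counts in each 1000000 of the scaled library. Their sum was 1542 to 1787 CPM with DMSO and 1224 to 1322 with dTAGV1, but they did not move together. KRT19 went from 786 ± 87.5 to 499 ± 11.5 CPM and KRT18 from 408 ± 13.9 to 269 ± 34.8 CPM, both called lower, while EPCAM went from 273 ± 15.4 to 331 ± 31.1 CPM and was called higher (SD, n = 4 each). CDH1 and KRT8 were not called. Of 6 markers of blood, endothelial and connective tissue cells, COL1A1 reached 19.9 CPM, and the summed level of all 6 was 17.1 to 22.4 CPM with DMSO and 11.8 to 16.2 with dTAGV1. Of uniquely mapped reads, 30.1% to 33.7% fell in no gene on the sense strand in DMSO libraries and 35.9% to 37.4% in dTAGV1 libraries, without overlap. Unmapped reads were 20.4% in dTAGV1 replicate 4 and 24.9% to 30.3% in the other libraries. The part of these markers and of these shares in the results below was not tested. In bulk RNA, fewer cells of a type and less RNA in each cell cannot be told apart.

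The promoters of 4 members are shown first. Genes for mitochondrial proteins are known to carry sites for NRF1, for ETS factors such as GABP and for YY1. These 4 changed in both directions, and each holds a marked match, which many members do not. Each line gives the 250 bases before the transcript start in RefSeq on GRCh38.p14, 5′ to 3′ on the strand of the gene. Capitals mark matches to GCGCATGCG, the core of the NRF1 motif, or to CCGGAAG, the ETS core, on either strand. MRPL48 and MRPL22 were higher with dTAGV1, and MRPL51 and MRPL58 were lower. The windows lie at chr11:73787624-73787873 on the plus strand for MRPL48, chr5:154940823-154941072 plus for MRPL22, chr12:6493263-6493512 minus for MRPL51 and chr17:75012420-75012669 plus for MRPL58.
MRPL48: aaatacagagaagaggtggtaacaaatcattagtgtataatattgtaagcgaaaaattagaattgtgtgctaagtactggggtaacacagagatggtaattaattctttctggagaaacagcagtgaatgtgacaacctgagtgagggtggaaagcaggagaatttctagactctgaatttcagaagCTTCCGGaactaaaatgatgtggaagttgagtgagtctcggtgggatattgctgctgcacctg
MRPL22: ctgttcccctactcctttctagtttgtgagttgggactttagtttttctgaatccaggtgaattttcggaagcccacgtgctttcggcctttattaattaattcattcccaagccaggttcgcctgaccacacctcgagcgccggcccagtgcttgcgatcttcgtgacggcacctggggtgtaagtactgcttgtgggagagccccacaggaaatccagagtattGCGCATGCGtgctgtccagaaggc
MRPL51: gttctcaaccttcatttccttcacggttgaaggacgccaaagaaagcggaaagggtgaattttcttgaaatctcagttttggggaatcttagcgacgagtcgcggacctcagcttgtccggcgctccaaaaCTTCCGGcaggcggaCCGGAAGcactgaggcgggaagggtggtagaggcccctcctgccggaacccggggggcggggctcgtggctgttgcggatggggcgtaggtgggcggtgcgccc
MRPL58: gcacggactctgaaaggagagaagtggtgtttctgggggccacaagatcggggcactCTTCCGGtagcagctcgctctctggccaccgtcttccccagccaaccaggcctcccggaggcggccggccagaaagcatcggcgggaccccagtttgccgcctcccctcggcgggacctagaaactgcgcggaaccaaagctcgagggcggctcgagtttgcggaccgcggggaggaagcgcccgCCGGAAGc

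The ETS core stood in 33 of 85 promoter windows of members, or 38.8%, against 10.3% of all 35116 windows of 300 bases in the table. All windows together belong to 27305 gene symbols and were not limited to protein-coding or tested genes, while every member is protein-coding. The share among tested genes alone was not taken. Windows reach from 250 bases before the start to 50 after it. The 85 belong to 69 members, since some genes have more than 1 start. AAGATGGCG, the core of the YY1 motif, stood in 15.3% of member windows against 1.75% of all windows, and the NRF1 core in 3.53% against 1.92%. Among windows of members that fell, 34.8% held the ETS core, as did 37.5% of the 8 windows of members that rose and 39.1% of those of members that were not called. The GCGCATGCG core overlaps its own reverse complement, so 1 site can match on both strands. Any of the 3 cores stood in 43 of 85 member windows, or 50.6%, while all 4 promoters printed above hold a match. MRPL44, MRPL49, MRPL11 and MRPS25 held 0. A match describes the letters only.

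Transcript 3′ ends of 4 members are shown next, because both agents act where RNA is cut. Each line gives the last 30 bases of the principal transcript in GENCODE 29 on GRCh38, 5′ to 3′, with the poly(A) signal AATAAA, the binding site of the cleavage machinery, in capitals. MRPL44 and MRPL54 were higher with dTAGV1, and MRPS25 and MRPL11 were lower. All 4 printed ends hold AATAAA, while 65.4% of members held it in the last 40 bases. The share was 60% of members that rose and 57.1% of those that fell. The stretches lie at chr2:223967685-223967714 on the plus strand for MRPL44, chr19:3767536-3767565 plus for MRPL54, chr3:15048518-15048547 minus for MRPS25 and chr11:66435075-66435104 minus for MRPL11.
MRPL44: ccAATAAAgttttttttctccacatgttaa
MRPL54: gccAATAAAgagctttctgggtagacccta
MRPS25: tctatcaatcAATAAAtgttgaacattttt
MRPL11: AATAAAaacctcatgttatcccaccaccca

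In the last 100 bases of their principal transcripts, 34 of 78 members, or 43.6%, held TGTA, the letters that cleavage factor Im binds as UGUA in RNA. The share was 55.1% for 10628 tested genes with such a transcript. The 78 include the members that were not tested. Among members, 5 of 10 that rose, 8 of 21 that fell and 18 of 39 not called held TGTA. Over all tested genes the shares were 57.8% of those that rose, 55.3% of those that fell and 53.1% of those not called. MRPL48 and MRPL44 each held 3 such sites, while MRPS36 and MRPL54, which also rose by more than 0.5 on the log2 scale, held 0. Of the members that fell, MRPL15 and MRPL49 held 2 each, MRPS28 held 1, and MRPS25 and MRPL11 held 0. AATAAA or ATTAAA stood in the last 40 bases in 76.9% of members and 76.2% of the tested genes. Which end the cells used was not measured here.

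Of the 78 members, 70 had enough counts to be tested, 45 of them MRPL and 25 MRPS. With dTAGV1, 10 were higher and 21 lower (BH-adjusted p under 0.05 by edgeR, over all 12618 tested genes). Together these are 44.3% of the tested members, where 57.9% of all tested genes were called. Members were called higher in 14.3% against 29.4% of all tested genes, and lower in 30% against 28.5%. Their median log2 fold change was -0.12 beside 0.01 over all tested genes, and the median of its absolute value was 0.24 beside 0.42. Only MRPS25 and MRPS28 changed more than 2-fold, or 2.86% of the tested members against 16.6% of all tested genes. Among members with a mean of at least 10 CPM, 46.0% were called, against 62.2% of the 7146 tested genes in the same range of levels.

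With libraries scaled by size alone, 5 were higher and 30 lower. The median log2 fold change over all tested genes was -0.06 with that scaling, beside 0.01 in the main fit. Shares of all tested genes called higher or lower in this and the other alternatives are not given here. The number of higher members was 6 without DMSO replicate 3, without dTAGV1 replicate 2 or without dTAGV1 replicate 3. Of the 31 calls, 20 were kept in each of 17 alternative fits that tested the gene, 3 of them higher and 17 lower. The 3 are MRPL48, MRPL44 and MRPL13. Groups of libraries did not overlap for 26 of the tested members, or 37.1%, where 50.9% of all tested genes had groups without overlap. These 26 comprised 19 of the lower members, 5 of the higher ones and 2 that were not called, MRPS9 and MRPS10.

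**Figure D1:**
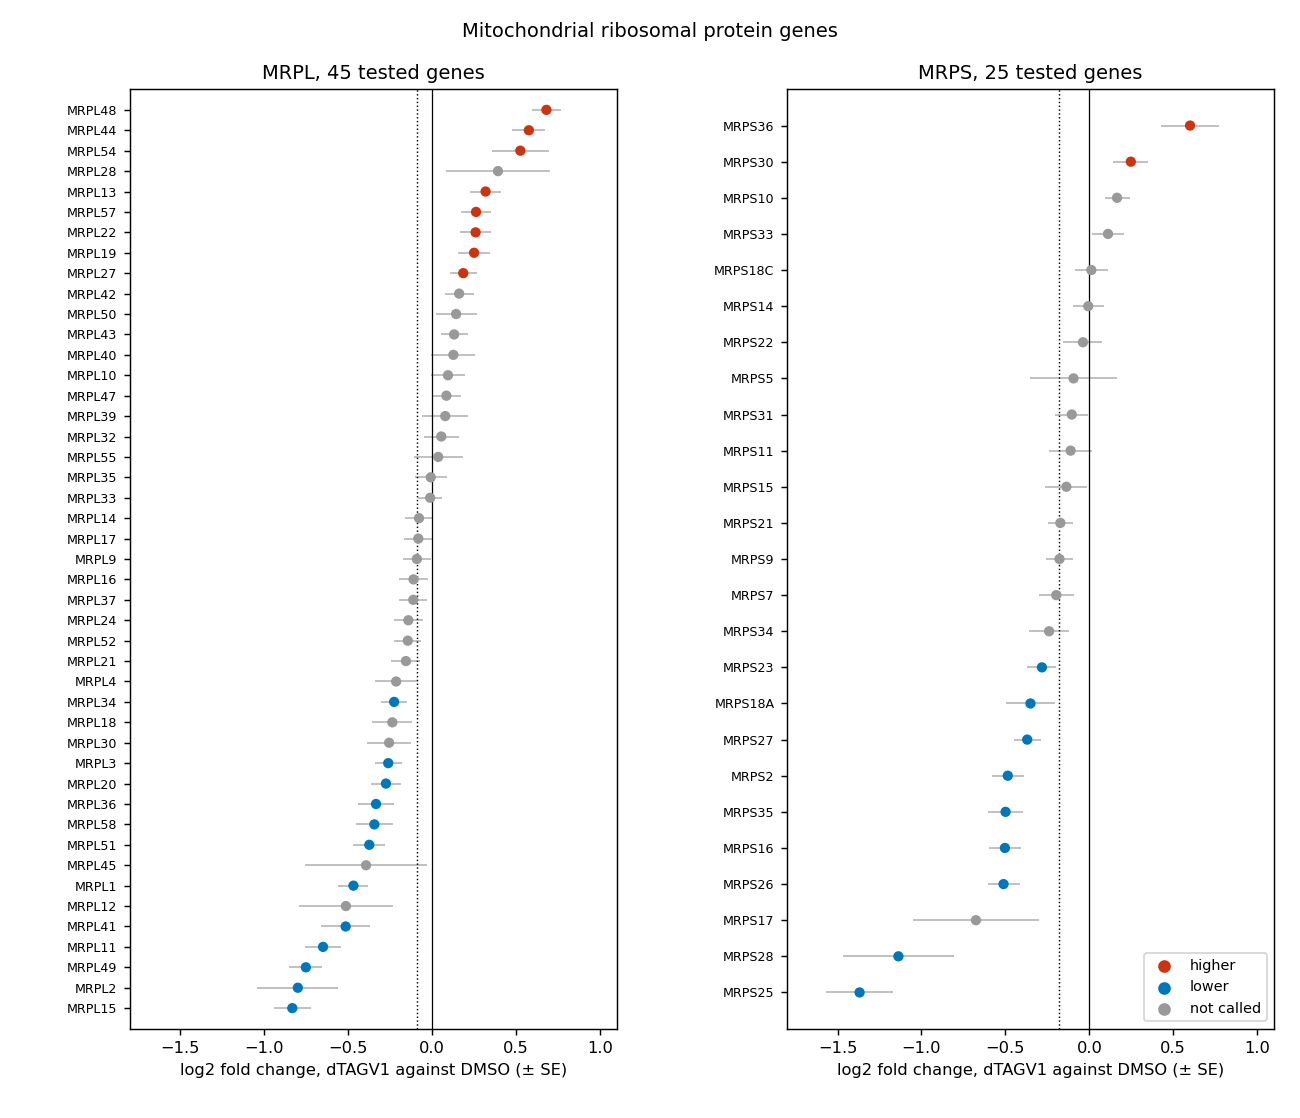
Log2 fold change of dTAGV1 against DMSO with its standard error (x axis) for the 45 MRPL genes (left) and 25 MRPS genes (right) tested, in order of size; colours give the call at an adjusted p under 0.05, and dotted lines mark the family medians of -0.09 and -0.18. Most points lie within 0.5 of 0, and the largest decrease is that of MRPS25.

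MRPL48, a protein of the central protuberance of the large subunit, had the largest increase of any member (ENSG00000175581; GRCh38 chromosome 11, 73787316 to 73865133, plus strand). Its levels were 76.5, 67.0, 61.4 and 64.3 CPM in DMSO replicates 1 to 4 and 105, 116, 107 and 104 CPM in dTAGV1 replicates 1 to 4. Every dTAGV1 library was above every DMSO library. On the log2 scale the change was 0.68 (SE 0.09; BH-adjusted p = 4.12e-07 by edgeR).

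MRPL44, which has a fold like that of the nuclease RNase III and sits near the exit of the peptide tunnel, followed among MRPL genes (ENSG00000135900; chromosome 2, 223957404 to 223967714, plus strand). It was at 42.4, 39.1, 37.9 and 41.0 CPM with DMSO and 58.1, 63.4, 57.7 and 59.8 CPM with dTAGV1. The groups were apart and each was tight. This is a log2 change of 0.58 (SE 0.10), with a BH-adjusted p of 1.75e-05 by edgeR, and 0.97 with reads counted irrespective of strand.

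MRPL54, a large-subunit protein with no bacterial counterpart, had levels of 18.9, 17.4, 18.9 and 20.3 CPM with DMSO and 32.6, 33.2, 26.8 and 17.0 CPM with dTAGV1. dTAGV1 replicate 4 lay below all DMSO libraries while the other dTAGV1 libraries lay above them. edgeR gave a log2 change of 0.53 (SE 0.17; BH-adjusted p = 0.0112). Without dTAGV1 replicate 2 the gene did not pass, at an adjusted p of 0.0591.

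The other 5 MRPL genes that rose had log2 fold changes of 0.19 to 0.32. MRPL13 rose from 97.1 ± 11.7 to 121 ± 12.7 CPM (SD, n = 4 each). MRPL22, which lines the peptide tunnel, rose from 66.6 ± 3.94 to 79.9 ± 5.63 CPM, and MRPL57 from 113 ± 9.90 to 136 ± 14.8 CPM (SD, n = 4 each). MRPL19 rose from 60.5 ± 2.94 to 72.1 ± 6.19 CPM, and MRPL27, whose bacterial counterpart reaches toward the site of peptide bond formation, from 111 ± 9.07 to 126 ± 4.33 CPM (SD, n = 4 each). Except for MRPL13, each of these was lost in at least 3 alternatives, and MRPL27 was lost in 13 of 17.

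Among the lower MRPL genes, MRPL15 fell most (ENSG00000137547). It was at 59.6, 50.2, 55.2 and 52.2 CPM with DMSO and 26.6, 30.2, 33.6 and 31.2 CPM with dTAGV1. The highest dTAGV1 library lay well below the lowest DMSO library. On the log2 scale the change was -0.83 (SE 0.11; BH-adjusted p = 5.13e-07 by edgeR). MRPL15 is a protein of the large subunit core with a bacterial counterpart.

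MRPL49, a protein found in mitochondrial and not in bacterial ribosomes, had levels of 95.4, 99.8, 104 and 93.7 CPM with DMSO and 48.2, 61.0, 54.8 and 68.3 CPM with dTAGV1 (ENSG00000149792; chromosome 11, 65122183 to 65127371, plus strand). The groups did not overlap, and the dTAGV1 libraries were more spread. This is a log2 change of -0.75 (SE 0.10), with a BH-adjusted p of 4.69e-07 by edgeR. FAU and SYVN1 overlap MRPL49 on the opposite strand, and with counts irrespective of strand the log2 fold change was -0.03 and the adjusted p 0.928.

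The stalk of the large subunit, where translation factors dock, is built on MRPL10, MRPL11 and MRPL12. MRPL11 was at 56.3, 75.7, 68.6 and 62.3 CPM with DMSO and at 38.5, 41.7, 41.2 and 45.9 CPM with dTAGV1, without overlap. edgeR gave a log2 change of -0.65 (SE 0.11; BH-adjusted p = 1.17e-05). MRPL10 was not called, at 0.09 on the log2 scale with a standard error of 0.10. MRPL12 had a log2 fold change of -0.51 and a standard error of 0.28, and was not called at 10 to 24 counts in a library.

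Of the other lower MRPL genes with at least 10 CPM, MRPL41 fell from 105 ± 11.6 to 73.8 ± 17.7 CPM and MRPL1, which by its bacterial counterpart lies on a mobile arm beside the tRNA exit site, from 118 ± 11.2 to 85.5 ± 7.90 CPM (SD, n = 4 each). MRPL51 fell from 145 ± 11.3 to 112 ± 17.2 CPM (SD, n = 4 each). MRPL58, a peptidyl-tRNA hydrolase built into the large subunit, fell from 45.6 ± 5.00 to 35.9 ± 1.74 CPM, and MRPL36 from 43.0 ± 1.21 to 34.0 ± 1.96 CPM (SD, n = 4 each). Log2 fold changes of these 5 ran from -0.52 for MRPL41 to -0.33 for MRPL36, and groups did not overlap for any of them. MRPL20, MRPL3 and MRPL34 were lower, at -0.28, -0.26 and -0.23 on the log2 scale. MRPL34 lost its call without DMSO replicate 3. MRPL2, under 10 CPM, had a log2 change of -0.80 (SE 0.24).

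**Figure D2:**
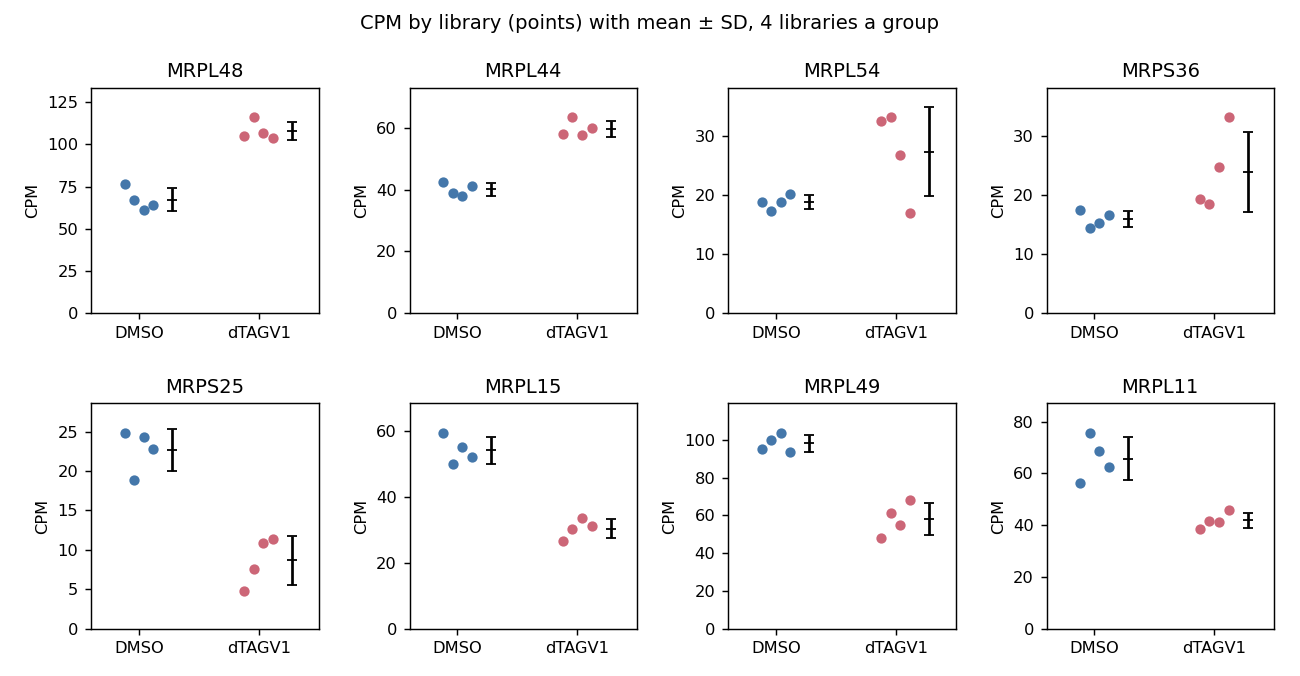
CPM (y axis, from 0) in each of the 4 DMSO and 4 dTAGV1 libraries for 4 members that rose (top) and 4 that fell (bottom), with mean ± SD beside the points. The groups are apart for every gene drawn except MRPL54, in which dTAGV1 replicate 4 lies at 17.0 CPM.

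MRPS25, a mitochondrion-specific protein of the small subunit, had the largest decrease of all members (ENSG00000131368; chromosome 3, 15042460 to 15065335, minus strand). It was at 24.9, 18.8, 24.3 and 22.8 CPM with DMSO and at 4.82, 7.55, 10.9 and 11.4 CPM with dTAGV1. The groups were far apart, and the dTAGV1 libraries differed among themselves by more than 2-fold. On the log2 scale the change was -1.37 (SE 0.20; BH-adjusted p = 2.09e-06 by edgeR). NR2C2 overlaps MRPS25 on the opposite strand, and the value with counts irrespective of strand was -0.54. MRPS28, at 12 to 20 counts in DMSO and 6 to 8 in dTAGV1 libraries, had a log2 change of -1.14 (SE 0.33; BH-adjusted p = 0.00469 by edgeR). MRPS28 is named although its level is under 10 CPM, because it is the other member beyond 2-fold.

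A group of small-subunit genes fell by a similar amount. MRPS26 was at 79.2, 87.3, 78.7 and 92.0 CPM with DMSO and at 66.9, 61.0, 54.8 and 54.4 CPM with dTAGV1. MRPS16, with a bacterial counterpart, went from 67.2 ± 4.13 to 47.2 ± 3.86 CPM (SD, n = 4 each). MRPS35 went from 90.2 ± 5.48 to 63.7 ± 10.3 CPM and MRPS2, another protein with a bacterial counterpart, from 69.7 ± 3.46 to 49.6 ± 3.18 CPM (SD, n = 4 each). Log2 fold changes of these 4 lay between -0.51 and -0.49, with standard errors of 0.09 to 0.10 and adjusted p-values of at most 0.000192 by edgeR's quasi-likelihood test with Benjamini-Hochberg adjustment. None of the 4 overlapped between groups. The span of MRPS16 overlaps that of DNAJC9 on the same strand, and reads that fit exons of both are given to neither. MRPS27, with the repeats typical of RNA-binding proteins of organelles, fell less, from 157 ± 4.53 to 121 ± 13.2 CPM (SD, n = 4 each), and MRPS23 had a log2 fold change of -0.28.

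Both MRPS genes that rose lie outside the small subunit. MRPS36 is now known as a subunit of the mitochondrial 2-oxoglutarate dehydrogenase complex, and MRPS30 is a protein of the large subunit despite its name. MRPS36 was at 17.5, 14.5, 15.2 and 16.6 CPM with DMSO and at 19.3, 18.4, 24.7 and 33.1 CPM with dTAGV1. The groups were separate by a small margin and replicate 4 stood highest. This is a log2 change of 0.60 (SE 0.17), with a BH-adjusted p of 0.00436 by edgeR. It was 0.37 with an adjusted p of 0.0622 without dTAGV1 replicate 4. MRPS30 was at 52.3 ± 4.83 and 62.0 ± 7.04 CPM (SD, n = 4 each), which is a log2 change of 0.25 with an adjusted p of 0.0445 by edgeR that was above 0.05 in 11 of 17 alternatives. Without dTAGV1 replicate 4 it was 0.16, with an adjusted p of 0.222.

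The paralogs MRPS18A, MRPS18B and MRPS18C derive from 1 bacterial gene and occupy different places. MRPS18C, which takes the place of the bacterial protein in the small subunit, was at 72.5 ± 5.39 and 73.0 ± 8.81 CPM (SD, n = 4 each). The change was 0.01 on the log2 scale (SE 0.10). MRPS18A, which lies in the large subunit, was at 27.6, 22.7, 26.7 and 27.2 CPM with DMSO and 22.4, 24.8, 18.9 and 16.1 CPM with dTAGV1, with overlap. This is a log2 change of -0.35 with an adjusted p of 0.0440 by edgeR. That call was lost in 6 of 15 alternatives. MRPS18B had 0 to 4 counts in a library and was not tested.

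Grouped by family, 8 MRPL genes were higher, 12 lower and 25 not called, while 2 MRPS genes were higher, 9 lower and 14 not called. The median log2 fold changes were -0.09 for MRPL and -0.18 for MRPS. Their difference of 0.09 was no larger than the spread of that difference between single replicate libraries, which was 0.09. The spread of the medians was 0.04 for MRPL and 0.08 for MRPS. A spread of single libraries is not the uncertainty of a comparison of 2 groups of 4. Grouped by the subunit in which the protein sits, 9 of 47 large-subunit members were higher and 13 lower. Of 22 small-subunit members, 0 were higher and 8 lower. Mitoribosomal proteins with other symbols are not in these counts, whichever subunit they sit in. Of these 5, CHCHD1 was higher at 0.37 on the log2 scale, kept in all 17 alternatives, and 4 were not called. The count of 0 therefore covers members only and not every gene of the small subunit. Among the small-subunit members 1 gene, MRPS10, was higher at an unadjusted p under 0.05 by edgeR, 1 by limma-voom and 0 by DESeq2. With any of the 3, 0 passed adjustment. With libraries scaled by size alone, 4 large-subunit genes were higher and 18 lower, and 12 small-subunit genes were lower. The median over all tested genes was -0.06 with that scaling. The small-subunit count of 0 did not hold without DMSO replicate 1, where MRPS10 passed at an adjusted p of 0.0440 by edgeR. The 8 lower genes are 36.4% of the tested small-subunit members and the 13 are 27.7% of the tested large-subunit members. Of all tested genes, 29.4% were higher and 28.5% lower. These splits are counts, and the difference between the subunits was not tested.

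Over all tested genes, 29.4% were higher and 28.5% lower. Within the large subunit, proteins with a bacterial counterpart numbered 4 higher (13.8%) and 8 lower (27.6%) of 29, with a median log2 fold change of -0.11. Mitochondrion-specific ones numbered 5 higher and 5 lower of 18 (27.8% each), with a median of 0.10. Of the small-subunit members, 3 of 13 genes with a bacterial counterpart (23.1%) and 5 of 9 mitochondrion-specific genes (55.6%) were lower. Of 5 tested genes of the central protuberance, MRPL48 and MRPL27 were higher and 0 were lower. Around the tunnel exit, MRPL44 and MRPL22 were higher among 7 tested genes and 0 were lower. At an unadjusted p under 0.05, edgeR had 0 lower in either group, DESeq2 0 in either, and limma-voom 1 in the central protuberance. With libraries scaled by size alone, 1 gene of the protuberance was higher and 2 were lower. At the tunnel exit 1 was higher and 1 lower with that scaling. DESeq2, and edgeR with other size factors, had 1 higher in the protuberance and 2 at the tunnel exit. The call of MRPL27 was lost in 13 of 17 alternatives.

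Summed over all 49 genes, MRPL levels were 3150.4, 3295, 3292 and 3235 CPM with DMSO and 2944, 3202, 3114 and 3108 CPM with dTAGV1. The groups overlapped, and the means differed by -4.66%. The 29 MRPS genes summed to 1698, 1686, 1757 and 1729 CPM with DMSO and to 1426, 1561, 1528 and 1569.7 CPM with dTAGV1. Here every dTAGV1 library was below every DMSO library, and the means differed by -11.4%. The ratio of summed MRPL to summed MRPS counts, which no scaling of libraries alters, was 1.86, 1.95, 1.87 and 1.87 with DMSO and 2.07, 2.05, 2.04 and 1.98 with dTAGV1. It was 1.89 ± 0.0448 and 2.03 ± 0.0373 (SD, n = 4 each), and the groups did not overlap. The difference was 0.145, beside a spread between replicates of 0.0412. Without MRPS25 it was 0.131 and without MRPL48 0.113. Without MRPL48 the groups overlapped, with DMSO up to 1.915 and dTAGV1 from 1.914. They also overlapped without MRPS27 (2.152 and 2.141) and without MRPS26 (2.062 and 2.051). Leaving out MRPS25, MRPS35, MRPL49 or MRPL41 kept them apart. Members without a named pseudogene gave ratios of 2.32 to 2.47 with DMSO and 2.73 to 2.90 with dTAGV1, a difference of 0.374. All members together took 0.501% to 0.508% of counts with DMSO and 0.423% to 0.461% with dTAGV1.

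**Figure D3:**
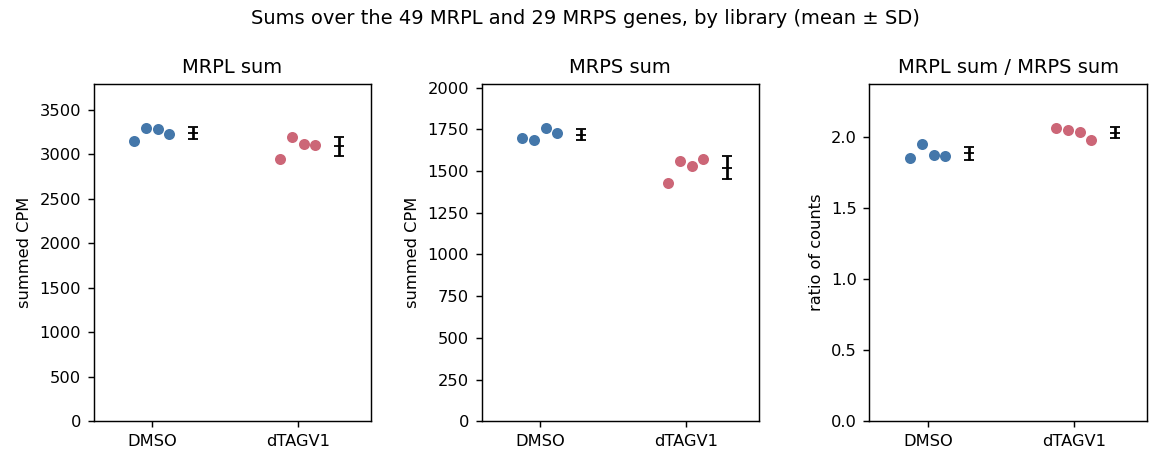
Summed CPM of the MRPL genes (left) and MRPS genes (middle) and the ratio of their summed counts (right), all from 0, in each of 4 DMSO and 4 dTAGV1 libraries with mean ± SD. The MRPL sums of the groups overlap, the MRPS sums do not, and the ratio is 1.86 to 1.95 with DMSO and 1.98 to 2.07 with dTAGV1.

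Of the tested members, 39 were not called, with log2 fold changes of -0.68 to 0.39 and standard errors of 0.07 to 0.37. The members with the highest mean CPM on this 3′ end scale, which was not corrected for transcript length, were among them. MRPS21 was at 211 ± 5.34 and 187 ± 18.3 CPM (SD, n = 4 each), which is a log2 change of -0.17 with an adjusted p of 0.0546 by edgeR. It passed as lower in 7 of 17 alternatives, with library-size scaling, other size factors, a replicate block and without dTAGV1 replicate 2 or replicate 4 among them. MRPS10 was at 151, 135, 134 and 148 CPM with DMSO and 155, 166, 156 and 159 CPM with dTAGV1, a log2 fold change of 0.17 with an adjusted p of 0.0596 by edgeR. MRPL33 was at 149 ± 6.29 and 147 ± 4.20 CPM (SD, n = 4 each), which is a log2 change of -0.01 with a standard error of 0.07.

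The 8 members not tested were MRPL23, MRPL38, MRPL46, MRPL53, MRPS6, MRPS12, MRPS18B and MRPS24. MRPL53 had 0 counts in all libraries and the others at most 12 in any. Of these 8, 5 overlap another gene on the same strand in GENCODE 29, CCDC142 for MRPL53 and SLC5A3 for MRPS6 among them. Overlaps are of whole gene spans, introns included, while only reads that fit exons of both genes are given to neither. MRPL33 has such an overlap, with BABAM2, at a mean of 148 CPM. Of the 15 members under 10 CPM, 10 had such an overlap, against 13 of the 63 others. The part of overlaps in the low values was not tested. Of the 78 members, 36 have at least 1 pseudogene named after them, and reads that fit 2 places equally are not in these counts. Counts on the strand opposite to the gene were enough to test for 10 members, of which 5, or 50%, were called, where 48.4% of genes tested on that strand were.

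Head-to-head neighbours, protein-coding genes that start within 1000 bases on the other strand, were found for 17 members, and both genes of the pair were tested for 11. Of these, 8 neighbours and 4 members were called, where 57.9% of all tested genes were. Both genes were called in 3 pairs. MRPL36 and NDUFS6, a subunit of respiratory complex I, were both lower, at -0.33 and -0.37 on the log2 scale. MRPL27 was higher at 0.19 while its neighbour EME1, a subunit of a DNA structure-specific nuclease, was lower at -1.49. MRPL57 was higher at 0.26 while its neighbour SKA3, a protein of the spindle attachment, was lower at -0.75.

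Other genes of mitochondrial translation were then examined. Of 5 mitoribosomal proteins with other symbols, CHCHD1 was higher with a log2 fold change of 0.37 and the other 4, DAP3, PTCD3, AURKAIP1 and GADD45GIP1, were not called, at -0.15 to 0.07. Of 24 tested genes of mitoribosome assembly and ribosomal RNA modification, 1 was higher and 10 lower, or 45.8% called where 57.9% of all tested genes were (29.4% higher and 28.5% lower), with a median of -0.19. The highest was MTERF4, a partner of the RNA methyltransferase NSUN4, at 0.77 with a standard error of 0.13. The lowest was MTG1, a GTPase of large-subunit assembly, which went from 5.66 ± 0.501 to 1.67 ± 0.623 CPM (SD, n = 4 each), which is a log2 change of -1.75. METTL15 and RBFA, which modify or bind the small-subunit RNA and were picked after their values were seen, had log2 fold changes of -1.54 and -1.18.

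Over all tested genes 57.9% were called. Of 11 tested translation factors, 4 were higher and 3 lower (63.6% called), from -0.50 for the elongation factor GFM1 to 0.64 for the release factor MTRF1. Of 19 tested genes for mitochondrial aminoacyl-tRNA synthetases and related enzymes, 4 were higher and 6 lower (52.6% called). They ran from -1.16 for MARS2 to 0.65 for WARS2, and WARS2 was not called without dTAGV1 replicate 4, with a log2 fold change of 0.38 and an adjusted p of 0.129. Of 18 genes of mitochondrial transcription, RNA processing and DNA replication, 5 were higher and 6 lower (61.1% called), from -0.52 for the tRNA-processing nuclease ELAC2 to 0.73 for POLG2, the accessory subunit of the mitochondrial DNA polymerase. Of 9 tested nuclear regulators of mitochondrial genes, 2 were higher and 5 lower (77.8% called). The coactivator PPARGC1B was lowest at -1.22, and GABPB1, a partner of the ETS factor GABPA, highest at 0.38, a call lost in 10 alternatives. GABPA itself was higher at 0.33, with an adjusted p of 0.0479 by edgeR and groups that overlapped, and GABPB2 was lower at -0.46. NRF1 was lower at -0.46, and YY1 was not called, at -0.11 with a standard error of 0.07.

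Cytosolic ribosomes are built from another set of nuclear genes. Of 79 tested cytosolic ribosomal protein genes, 58 were higher and 4 lower, or 78.5% called where 57.9% of all tested genes were and 29.4% were higher, with a median log2 fold change of 0.26 and middle 50% of 0.19 to 0.34. Those genes have many near-identical copies, so single values are uncertain. The set was taken by symbol and holds paralogs such as RPL22L1 and RPL7L1. The 4 lower genes were RPL22, RPL22L1, RPL36A and RPL7L1. With libraries scaled by size alone, 43 of the 79 were higher and 4 lower, where the median over all tested genes was -0.06. Of 13 genes encoded by mitochondrial DNA, 7 were higher and 0 lower (53.8% called, by edgeR), with a median of 0.33. None was lower at an unadjusted p under 0.05 by edgeR, DESeq2 or limma-voom. For the mitochondrial ribosomal protein genes the middle 50% was -0.35 to 0.09. The difference between these sets was not tested.

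**Figure D4:**
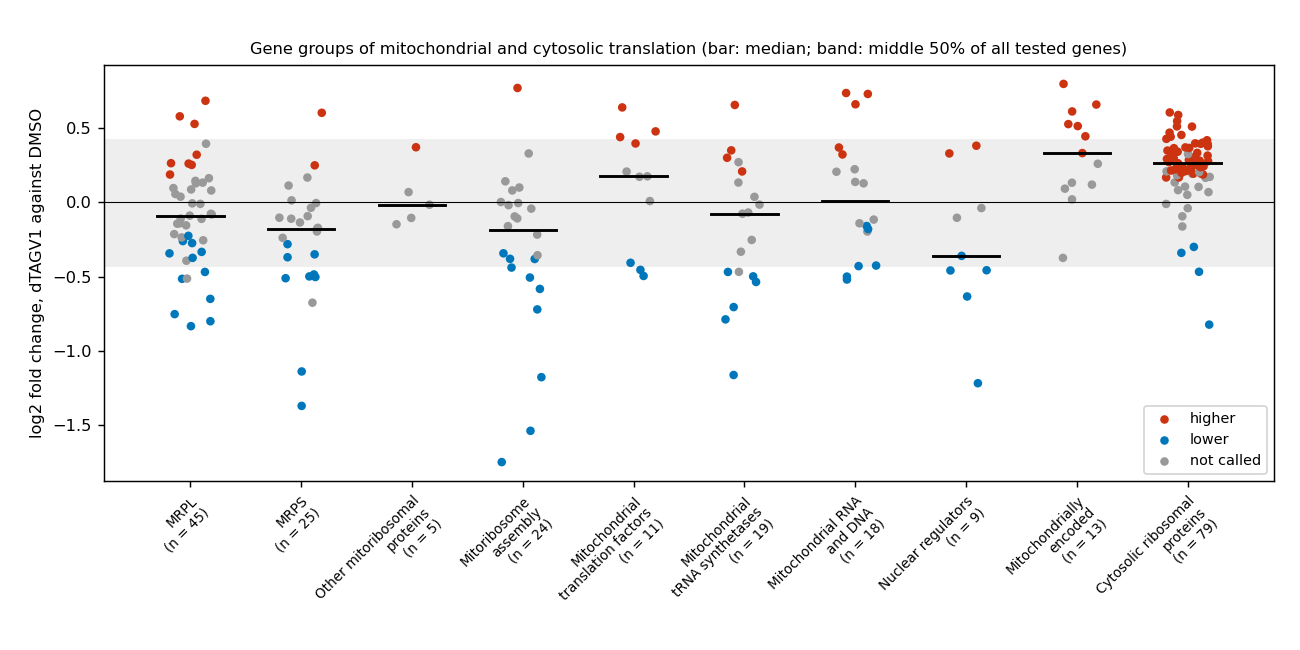
Log2 fold change of dTAGV1 against DMSO (y axis) of each tested gene in 10 groups of genes, with the group median as a bar and the middle 50% of all tested genes as a grey band; colours give the call. The medians are -0.09 for MRPL and -0.18 for MRPS, and 0.26 for cytosolic ribosomal protein genes, of which 58 of 79 were higher.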

How the data were processed

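The deposited values are whole-number counts of reads per gene, 1 table for each of 8 libraries, in the layout of STAR's gene counts. STAR, HTSeq, fastp, FastQC, DESeq2 and GRCh38 are named per the submitters' processing notes, without versions; annotation and removal of PCR copies are not given in the sources used here. Counts on the sense strand were used, since the QuantSeq forward kit keeps strand, per the labels' protocols. Reads given to no gene, 56.7% to 62.8% of each library, stayed out of library sizes and tests. Of 78932 identifiers, 61481 were in the table of names and 57356 in GENCODE 29, which gave gene types and coordinates. Promoters came from RefSeq.

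Genes were filtered with filterByExpr, scaled by TMM and tested by the quasi-likelihood test of edgeR 4.0.16 in R 4.3.3, with robust dispersions and Benjamini-Hochberg adjustment over all 12618 genes at 0.05. The standard error is the absolute log2 fold change divided by the square root of F. Figures used matplotlib 3.10.9. Alternatives were DESeq2 1.42.0, limma-voom (limma 3.58.1), other scalings, filters, strand, dispersions, a replicate block, other groupings of members, and each library left out. With 4 libraries a group the labels do not say whether replicates are separate cultures, so p-values measure the spread between libraries, which may be technical.

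The members and gene lists were chosen with earlier results of these data known, and motifs at transcript ends after the values were seen. Named genes were the 8 largest increases and decreases among MRPL and the 6 largest of each among MRPS genes that were called at a mean of at least 10 CPM. MRPS18A, MRPS18B, MRPS18C, MRPS30, MRPL12, MRPL58, the 3 members of highest mean, untested members and the extremes of each list were added; others were named after their values were seen.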

Additional observations from a re-analysis of the deposited data

Results flagged for a closer look

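MRPL19 in dTAGV1 replicate 2 was at 81.3 CPM, while the other dTAGV1 libraries were at 68.0 to 70.0 CPM, a gap that covered 0.850 of the range of the group and was above the critical value of Dixon's test. Of 86 groups of 4 libraries examined this was 1, and chance alone gives about 1 such group in 20. Without that library the log2 fold change of MRPL19 did not pass, at an adjusted p of 0.118.

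Counts on the strand opposite to the gene were not used for the values above. Of 10 members with enough such counts, 1 was higher with dTAGV1 and 4 were lower by edgeR with Benjamini-Hochberg adjustment, where 48.4% of 3324 genes differed on that strand. The higher one was MRPS22, with 435 to 533 opposite-strand counts in DMSO libraries and 662 to 834 in dTAGV1 libraries. On the log2 scale the change was 0.56 (SE 0.09; BH-adjusted p = 6.99e-06 by edgeR), beside -0.04 on its own strand. COPB2 is among the genes that overlap MRPS22 there.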

How the results depend on the processing

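Over 42 named genes and 17 alternative fits, 0 calls changed direction and 28 genes kept their side of the threshold throughout. The number of higher members, 10, became 5 under library-size scaling, 6 with a mean of at least 100 counts, 6 without a filter and 6 of 37 members without a named pseudogene, of which 11 were lower. Leaving out each library gave 6 to 10 higher and 19 to 26 lower members. Shares of all tested genes called higher or lower in those fits are not given here. The filter at a mean of at least 100 counts left 4120 genes called over all, since fewer were tested. The MRPL median was -0.17 under library-size scaling, where the median of all genes was -0.06. Without members that have a named pseudogene, the MRPS median was -0.28, the MRPL minus MRPS difference 0.20 and the difference in count ratio 0.374. By subunit, the difference in count ratio was 0.198. The cause of these shifts was not tested. Ranges over left-out libraries were -0.12 to -0.08 for the MRPL median, -0.24 to -0.14 for the MRPS median, 0.04 to 0.13 for their difference and 0.134 to 0.167 for the ratio.

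Replicate numbers are shared by the groups, but deviations from group means correlated at 0.131, -0.0176, 0.0232 and 0.0340 for numbers 1 to 4, so the numbers were not taken as pairs. A fit with a replicate block called 7434 genes, 10 higher and 21 lower members, with medians of -0.09 and -0.18 for MRPL and MRPS and -1.95 for NUDT21; MRPL41 had an adjusted p of 0.0555 there. Members with few counts are limited by depth: MRPL12, MRPL28, MRPL45, MRPS5 and MRPS17 had standard errors of 0.26 to 0.37.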
